A study of Homo sapiens with 4 samples.

Results

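The transcripts described here are 268 long noncoding RNA (lncRNA) genes whose names end in -AS and a number, the form given to a transcript that lies antisense to the gene named before the hyphen. They were chosen by name and by level from 46902 lncRNA genes, of which 1160 carry such a name. The values that chose them were the mean over 4 libraries of the FPKM summed over a gene's isoforms, which had to be at least 1, and 8 genes (PCED1B-AS1, TMEM132D-AS1, EPB41L4A-AS1, LRRC75A-AS1, OIP5-AS1, GNAS-AS1, DLGAP2-AS1 and FOXD2-AS1) were left out by name from the 276 that met this minimum. FPKM scales the sequenced fragments by the length of the transcript and the size of the library, so levels are per length and can be set side by side between genes. Of the other genes of this name form, 555 had a mean above 0 and under 1, and 329 were listed at 0 in all 4 libraries. The 3 members closest above the minimum were CACTIN-AS1 (1.56 and 0.700 FPKM in the parental libraries, 0.761 and 1.05 FPKM in the subline), PPP1R12A-AS1 and YTHDF3-AS1, and the 3 genes closest below it were PRMT5-AS1, EPHA5-AS1 and B4GALT1-AS1, with means of 0.982, 0.976 and 0.975 FPKM.

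The libraries came from 2 human cell lines. MDA-MB-231 is a triple-negative breast cancer line, which lacks oestrogen receptor, progesterone receptor and HER2 amplification. MDA-MB-231-P3 was derived from it by 3 rounds in which cells were injected into the tail vein of mice, grown out as lung tumours and expanded in culture, and the labels call it highly metastatic. Each line had 2 libraries of strand-marked, paired-end reads from the mRNA fraction of cultured cells. MDA-MB-231-P3 is 1 subline, so that what selection in the lung brought about and what passage or chance in this derivation brought about cannot be told apart. Nothing in the labels says that a line's 2 libraries were separate cultures. A p-value therefore covers only how far these libraries spread, and that spread may be technical. Read depth was unknown, because FPKM values carry no counts.

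Antisense lncRNAs are transcribed from the DNA strand opposite to a partner gene. Some start close to the partner's own promoter and run away from it, and current nomenclature calls many of these divergent transcripts (-DT). Others start inside or downstream of the partner and overlap its body, where pairing with the partner's RNA, interference between the polymerases and recruitment of chromatin complexes have been described for individual transcripts. Many are of low abundance, and several, such as ZEB1-AS1, HOXA-AS2 and CDKN2B-AS1, are known from work on tumour cells. The table held lncRNAs only, so the partner genes' mRNAs and the protein-coding markers of the line (0 of 8 had a row) were not analysed here.

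Marker lncRNAs of other cell types were summed beside the members. They are human lncRNAs, and the reads were aligned to hg19, so these sums cannot tell whether cells of mouse lung were present. The summed level of 5 immune cell lncRNAs was 0.668 and 1.67 FPKM in the parental libraries and 1.13 and 1.2 FPKM in the subline. For 3 lncRNAs of lung epithelium, of which LINC00261 alone passed 0.5 FPKM, the sum was 5.59 and 5.05 FPKM against 7.63 and 7.52 FPKM. For 5 stromal lncRNAs it was 18.1 and 12.9 FPKM against 16.5 and 17.9 FPKM. The sums of the lung epithelial list alone did not overlap between the lines. Of all genes of mean FPKM at least 0.5, 28.8% had both subline libraries above both parental ones. The part of other cells in the differences below was not tested.

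Most members were low, and a few stood far above the rest. The median of their mean levels was 3.01 FPKM, with a range from 1.02 to 127 FPKM. Means of 1 to under 2 FPKM were found for 78 members, 2 to under 5 for 109, 5 to under 10 for 46, and 10 or more for 35. All but 2 members were above 0 in each library, and 202 reached 1 FPKM in all 4. Added up, the members came to 1952 and 1765 FPKM in the parental libraries and to 1692 and 1787 FPKM in the subline. These sums were 0.424%, 0.353%, 0.482% and 0.480% of everything listed in the library. The listed totals were 460282 and 500086 FPKM in the parental libraries and 351135 and 372689 FPKM in the subline. The larger subline shares thus go with smaller totals. Across members, log2(FPKM + 0.5) of the parental pair correlated with a Pearson's r of 0.873, that of the subline pair with 0.891, and libraries of different lines with 0.805 to 0.834. These r describe 268 genes that share libraries, and genes are not replicates.

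FGD5-AS1 was the most abundant member and the steadiest of the top 3. Its level was 125 and 117 FPKM in the parental libraries and 124 and 143 FPKM in the subline (log2 difference 0.14, SE 0.26, limma adjusted p = 0.806). PSMA3-AS1, antisense to a proteasome subunit gene, had 148 and 55.1 FPKM in the parent, and the subline had 37.3 and 148 FPKM. The same level was thus reached in each line, and the libraries within each line differed by up to 3.97-fold, more than for any other member of at least 5 FPKM. GABPB1-AS1, which starts head-to-head with a subunit gene of the ETS-family factor GABP, had 73.4 and 113 FPKM against 72.9 and 80.9 FPKM. Behind these 3, OVCH1-AS1 had 68.1 and 50.05 FPKM in the parent and 86.8 and 81.7 FPKM in the subline, and both subline libraries lay above both parental ones (log2 difference 0.52, SE 0.29, limma adjusted p = 0.450). TRIM52-AS1, a neighbour of a ubiquitin ligase gene, was ordered the other way, at 74.2 and 39.6 FPKM against 26.0 and 36.99 FPKM (log2 difference -0.80, SE 0.42, limma adjusted p = 0.441).

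The other 5 of the 10 most abundant members were ZBED5-AS1, CCDC18-AS1, PITPNA-AS1, FLG-AS1 and SERTAD4-AS1. For ZBED5-AS1 the parental libraries had 32.9 and 50.1 FPKM and the subline 38.9 and 47.0 FPKM, so its subline values fell between its parental ones. CCDC18-AS1 had 43.96 and 22.3 FPKM against 53.4 and 35.2 FPKM, and its lines overlapped too. PITPNA-AS1 had 50.4 and 32.0 FPKM against 33.5 and 32.1 FPKM, and 63.9% of its exon bases lie in exons annotated on the opposite strand. FLG-AS1, antisense to the filaggrin gene of the skin barrier, had 30.1 and 35.5 FPKM against 36.8 and 35.9 FPKM, while SERTAD4-AS1 had 37.4 and 31.1 FPKM against 30.8 and 20.1 FPKM. For the last 2 the lines did not overlap, by margins far smaller than the gap between the libraries of a line. None of the 10 passed the test.

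**Figure D1:**
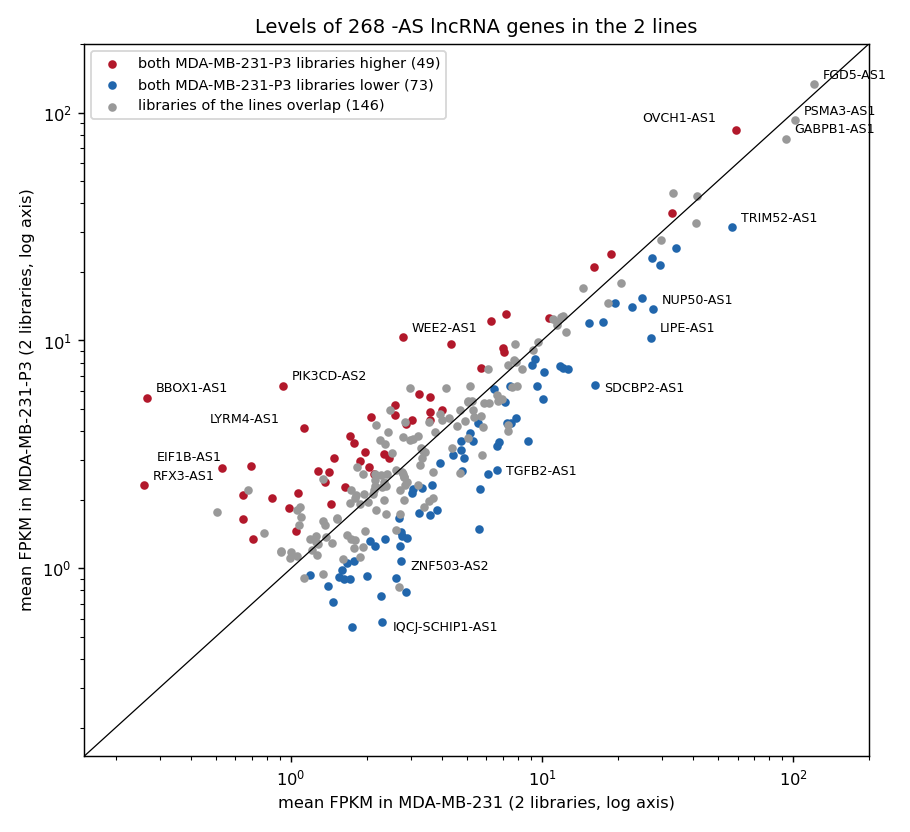
Mean FPKM of each of the 268 members in MDA-MB-231 (x axis) and MDA-MB-231-P3 (y axis), 2 libraries per line, on log axes with the line of equality. Red points (49) had both subline libraries above both parental ones, blue points (73) below, and grey points (146) overlapped. The points spread more around the line at low levels, and FGD5-AS1 is the member with the highest mean, at 127 FPKM.

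Comparing the lines asks which antisense transcripts changed in level as the cells were selected for growth in the lung. No member passed the test. With limma on log2(FPKM + 0.5), adjusted over all 6444 genes of mean FPKM at least 0.5, 0 of 268 members had an adjusted p under 0.05, where 4 of all genes tested (0.0621%) did, and 0 of all genes did without any single library. In bulk samples fewer cells with a transcript and less of it per cell cannot be told apart. The smallest limma adjusted p of a member was 0.187. In simulated data of 6444 genes, the test called 1 of 50 genes with a log2 change of 1. It called 15 of 50 with a change of 2 and 45 of 50 with a change of 4. A member that did not pass is therefore not shown to be unchanged. An unadjusted p under 0.05 was found for 19 members that were higher in the subline, 7.09% of them beside 9.5% of all genes tested, and for 17 that were lower, 6.34% beside 5.68%. The 8 genes left out by name included PCED1B-AS1, which passed, so that with them 1 of 276 was called.

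The order of the libraries was counted without a test. Both subline libraries lay above both parental ones for 49 members (18.3%) and below for 73 (27.2%). Over all genes tested these shares were 28.8% and 21.4%, and over the 4191 genes that also had a mean of at least 1 they were 28.6% and 23%. The median log2 difference of the members was -0.03, from -1.57 to 3.07, beside 0.09 for all genes tested and 0.06 for those of mean at least 1. The mean levels of the lines differed by less than 1.5-fold for 162 members. They differed at least 2-fold for 42, of which 21 were higher and 21 lower in the subline, and the lines did not overlap for 17 and 20 of these. The latter are 6.34% and 7.46% of the members, beside 14.7% and 9.19% of the 4191 genes of mean at least 1.

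These counts moved with the scaling of the libraries. Quantile normalization and median centring shifted the median of all genes tested from 0.09 to -0.03 and -0.02. Under quantile normalization 43 members (16.0%) lay above and 85 (31.7%) below, beside 23.9% and 26.6% of all genes tested, and under centring 38 (14.2%) and 87 (32.5%), beside 23.9% and 26.9%. At an unadjusted p under 0.05 the counts of 19 higher and 17 lower became 14 and 22 with quantile normalization and 14 and 28 with centring. Over all genes tested, 9.5% higher and 5.68% lower became 7.53% and 7.36% with quantile normalization and 7.56% and 7.81% with centring. The members' median became -0.11 and -0.14. Without the second parental library it was -0.12. Whichever single library was left out, fewer members in each direction had an unadjusted p under 0.05, and such fits also have fewer libraries. No share over all genes was set beside those fits.

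**Figure D2:**
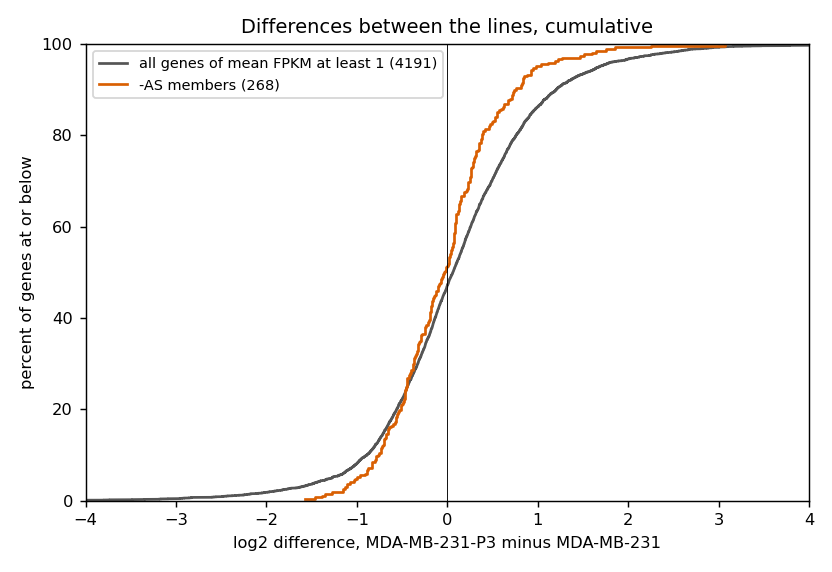
Cumulative percent of genes (y axis) at or below each log2 difference, MDA-MB-231-P3 minus MDA-MB-231 (x axis, values beyond 4 in size not drawn), for the 268 members and for all 4191 genes of mean FPKM at least 1. The members' curve spans -1.57 to 3.07 and crosses 50% at -0.03, and that of all genes crosses at 0.06 and has longer tails on both sides.

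The 6 members of smallest p that were higher in the subline were PIK3CD-AS2, BBOX1-AS1, LYRM4-AS1, WEE2-AS1, RFX3-AS1 and EIF1B-AS1. PIK3CD-AS2 lies within PIK3CD, the gene of the delta catalytic subunit of phosphoinositide 3-kinase. It had 0.946 and 0.905 FPKM in the parent, and the subline had 5.89 and 6.75 FPKM, 6.83-fold higher in the mean. The libraries of a line nearly coincided, and the log2 difference of 2.26 (SE 0.26) had a limma adjusted p of 0.187. BBOX1-AS1, antisense to the gene of the last enzyme of carnitine synthesis, had the highest difference of all members. The parental libraries listed it at 0.00403 and 0.528 FPKM and those of the subline at 6.31 and 4.89 FPKM (log2 difference 3.07, SE 0.44, limma adjusted p = 0.219). Since a parental value near 0 can be a failed estimate, no fold is given for it.

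The next 4 were also higher in both subline libraries than in either parental one, which the choice by small p favours. WEE2-AS1, antisense to the gene of an oocyte kinase of the WEE1 family, had 2.12 and 3.45 FPKM in the parent and 10.02 and 10.6 FPKM in the subline (log2 difference 1.75, SE 0.32, limma adjusted p = 0.256). LYRM4-AS1, named for a gene of iron-sulfur cluster assembly, had 1.29 and 0.957 FPKM against 4.27 and 3.97 FPKM (1.52, SE 0.27, limma adjusted p = 0.256). Neither gene's lines overlapped, and the subline exceeded the parent 3.71-fold and 3.67-fold in the mean. RFX3-AS1, next to the gene of a transcription factor of cilia formation, was at 0.220 and 0.299 FPKM against 1.64 and 2.98 FPKM (1.85, SE 0.37, limma adjusted p = 0.257). EIF1B-AS1, next to a translation initiation factor gene, was at 0.773 and 0.612 FPKM against 3.28 and 2.34 FPKM (1.46, SE 0.30, limma adjusted p = 0.257). On this scale the differences of such low values are understated.

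On the lower side the 6 members of smallest p were LIPE-AS1, TGFB2-AS1, IQCJ-SCHIP1-AS1, SDCBP2-AS1, ZNF503-AS2 and NUP50-AS1. LIPE-AS1, antisense to the hormone-sensitive lipase gene, had 25.5 and 28.7 FPKM in the parent and 9.98 and 10.6 FPKM in the subline, 2.64-fold higher in the parent. Its log2 difference was -1.36 (SE 0.25, limma adjusted p = 0.256), and 34.96% of its exon bases lie in exons of the opposite strand. NUP50-AS1, head-to-head with a nuclear pore gene, had 23.6 and 31.4 FPKM against 13.7 and 13.7 FPKM (-0.97, SE 0.28, limma adjusted p = 0.282), 2.01-fold higher in the parent. SDCBP2-AS1, antisense to the syntenin-2 gene, had 13.2 and 19.3 FPKM against 7.56 and 5.25 FPKM (-1.28, SE 0.34, limma adjusted p = 0.268). These 3 were well above the low values of the table in every library. In each the lines were apart, which the choice by small p favours.

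TGFB2-AS1, antisense to the gene of the growth factor TGF-beta 2, had 5.74 and 7.43 FPKM in the parent and 2.75 and 2.68 FPKM in the subline (-1.13, SE 0.27, limma adjusted p = 0.268). Of its exon bases 37.95% lie in exons of the opposite strand. ZNF503-AS2, next to the gene of a zinc-finger corepressor, had 2.27 and 3.21 FPKM against 0.997 and 1.16 FPKM (-1.03, SE 0.29, limma adjusted p = 0.282). IQCJ-SCHIP1-AS1 had 1.94 and 2.65 FPKM against 0.341 and 0.828 FPKM (-1.39, SE 0.36, limma adjusted p = 0.268). In all 6 members on the lower side, both subline values lay below both parental ones. They were chosen by the p between these same libraries, so this separation is no further evidence of a difference.

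**Figure D3:**
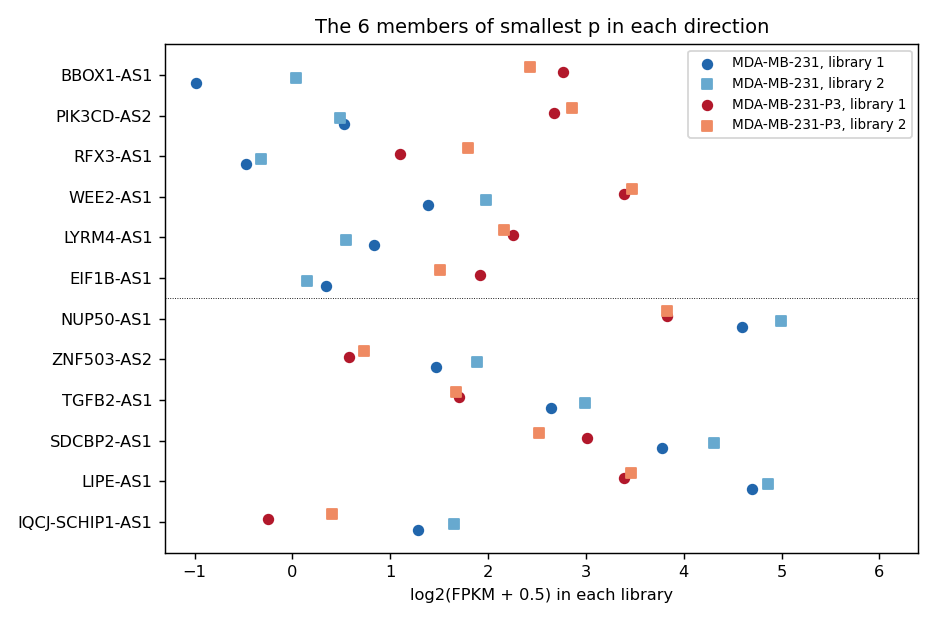
log2(FPKM + 0.5) (x axis) of the 6 members of smallest p in each direction (rows), with 1 point per library. Blue points are MDA-MB-231, red and orange points are MDA-MB-231-P3, and circles and squares are libraries 1 and 2. In the upper 6 rows both subline points lie to the right of both parental points, and in the lower 6 to the left. Choosing rows by the p between these same libraries favours such separation. None of the 12 passed the test (smallest limma adjusted p 0.187).

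Where these transcripts start relative to their partner genes could be read for most members. Of the 268, 259 matched a noncoding gene of GENCODE release 44 on hg19, 42 of them under a later symbol. With the partner's annotation, 105 were head-to-head, starting within 1000 bases of the partner's start on the other strand (median 245 bases), and 149 overlapped the partner's body in another way. Another 4 did neither, LYRM4-AS1 among them, and the partner of 1 could not be matched. Of the 37 members that now carry a -DT name, 34 were head-to-head.

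The promoter windows of these members, from 250 bases before to 50 after the annotated start, were richer in CpG than those of all annotated lncRNA genes. Members had passed a minimum level in these cells, and the annotated genes set beside them were not filtered by level. What this filter contributes was not tested. The ratio of CpG dinucleotides observed to those given by base composition had a median of 0.861 in the 105 head-to-head windows, 0.632 in the 149 overlapping ones, 0.694 over 20162 protein-coding genes and 0.290 over 18702 lncRNA genes. It exceeded 0.6 in 91.4%, 51.0%, 57.9% and 23.3% of them. A GC box (GGGCGG on either strand), the letters bound by Sp1-family factors, was in 72.4% of the head-to-head and 53.0% of the overlapping windows, against 52.1% of protein-coding and 22.6% of lncRNA windows. An ETS core (CCGGAAG on either strand) was in 21.9% and 13.4%, against 11.8% and 4.82%. A TATA box (TATAAA on either strand) was in 7.62% and 12.1%, against 10.9% and 15.9%, and CCAAT on either strand was in 25.7% and 33.6%, against 35.8% and 35.4%. A head-to-head window also holds part of the partner's promoter by construction, and a match of letters is a description and not a bound site.

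Sequences are shown for 6 members to set the starts of head-to-head transcripts beside those of overlapping ones, chosen after the values were seen. Each is the stretch of the GRCh37 (hg19) window that lies in no annotated untranslated region, 5′ to 3′ on the strand of the antisense transcript, with capitals for the bases transcribed from its annotated start. The first 4 are head-to-head. EIF1B-AS1 (chr3:40351140-40351197, minus strand) starts 9 bases from EIF1B, NUP50-AS1 (chr22:45559643-45559805, minus strand) 114 bases from NUP50, RAB30-AS1 (chr11:82782966-82783143, plus strand) 129 bases from RAB30, and RFX3-AS1 (chr9:3526209-3526508, plus strand) 455 bases from RFX3.
EIF1B-AS1: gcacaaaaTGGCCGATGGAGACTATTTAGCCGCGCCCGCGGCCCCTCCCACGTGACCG
NUP50-AS1: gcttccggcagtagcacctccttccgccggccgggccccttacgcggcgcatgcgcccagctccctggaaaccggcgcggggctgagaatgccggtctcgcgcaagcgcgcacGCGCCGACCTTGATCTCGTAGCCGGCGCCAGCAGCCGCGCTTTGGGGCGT
RAB30-AS1: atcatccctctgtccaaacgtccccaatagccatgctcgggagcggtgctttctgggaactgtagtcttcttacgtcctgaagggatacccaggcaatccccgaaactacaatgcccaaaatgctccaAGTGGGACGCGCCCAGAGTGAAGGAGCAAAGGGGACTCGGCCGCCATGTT
RFX3-AS1: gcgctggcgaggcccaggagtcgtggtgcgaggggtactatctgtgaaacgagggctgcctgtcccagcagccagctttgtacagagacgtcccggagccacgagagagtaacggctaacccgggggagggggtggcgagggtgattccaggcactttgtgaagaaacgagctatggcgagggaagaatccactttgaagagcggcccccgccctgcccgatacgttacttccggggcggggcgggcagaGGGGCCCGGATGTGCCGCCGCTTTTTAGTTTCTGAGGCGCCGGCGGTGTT
The stretch of NUP50-AS1 holds 25 CpG and an ETS core at position 2, beside the NUP50 start, and that of RFX3-AS1 holds 26 CpG, an ETS core at position 229 and GC boxes at positions 209, 235 and 240, counted from 1 at the 5′ end. RAB30-AS1 has 9 CpG and a CCAAT at position 24, and its whole window had a CpG ratio of 0.527, below the 0.6 that 91.4% of head-to-head windows exceeded. The stretch of EIF1B-AS1, only 58 bases long, holds 7 CpG and none of the 4 motifs. Its whole window holds 29 CpG, with a CpG ratio of 1.07. The stretches differ in length, so their counts are not to be set side by side.

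The other 2 start far from the partner's start and overlap its body: LIPE-AS1 (chr19:42901016-42901315, plus strand) 30274 bases away and PIK3CD-AS2 (chr1:9747592-9747891, minus strand) 57694 bases away.
LIPE-AS1: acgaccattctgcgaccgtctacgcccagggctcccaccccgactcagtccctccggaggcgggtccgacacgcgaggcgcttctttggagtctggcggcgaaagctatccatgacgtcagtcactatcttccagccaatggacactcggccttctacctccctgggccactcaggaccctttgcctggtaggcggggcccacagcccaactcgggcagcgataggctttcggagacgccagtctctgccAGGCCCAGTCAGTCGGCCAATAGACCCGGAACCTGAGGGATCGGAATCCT
PIK3CD-AS2: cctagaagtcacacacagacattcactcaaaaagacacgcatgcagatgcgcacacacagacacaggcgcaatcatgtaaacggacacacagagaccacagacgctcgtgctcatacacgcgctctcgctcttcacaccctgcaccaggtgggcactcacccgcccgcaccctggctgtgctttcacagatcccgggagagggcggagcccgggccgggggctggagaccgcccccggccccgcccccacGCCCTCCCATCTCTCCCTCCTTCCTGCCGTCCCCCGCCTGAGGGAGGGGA
PIK3CD-AS2 has 4 GC boxes, at positions 161, 201, 229 and 241, and LIPE-AS1 has CCAAT at positions 136 and 267. LIPE-AS1 holds 23 CpG and PIK3CD-AS2 holds 21, with CpG ratios of 0.777 and 0.7. Both ratios are above the 0.527 of the head-to-head RAB30-AS1, so these examples show no clear CpG contrast between the classes. In the annotation PIK3CD-AS2 shares no exon base with an exon of the opposite strand.

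Members of both position classes lay on either side of 0 in the comparison of the lines. The median log2 difference was 0.05 for head-to-head members and -0.10 for overlapping ones, beside 0.09 for all genes tested. Both subline libraries lay above for 16 (15.2%) and below for 26 (24.8%) of the 105 head-to-head members, and above for 31 (20.8%) and below for 40 (26.8%) of the 149 overlapping ones, beside 28.8% and 21.4% of all genes tested. An unadjusted p under 0.05 was reached by 6 higher (5.71%) and 7 lower (6.67%) head-to-head members and by 12 higher (8.05%) and 10 lower (6.71%) overlapping ones, beside 9.5% and 5.68% of all genes tested. Both scalings turned the head-to-head median negative (-0.03 and -0.06). The difference between the classes was not tested. TGFB2-AS1, ZNF503-AS2, NUP50-AS1, RFX3-AS1 and EIF1B-AS1 were head-to-head, and of the other 7 members of smallest p 6 overlapped their partner.

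**Figure D4:**
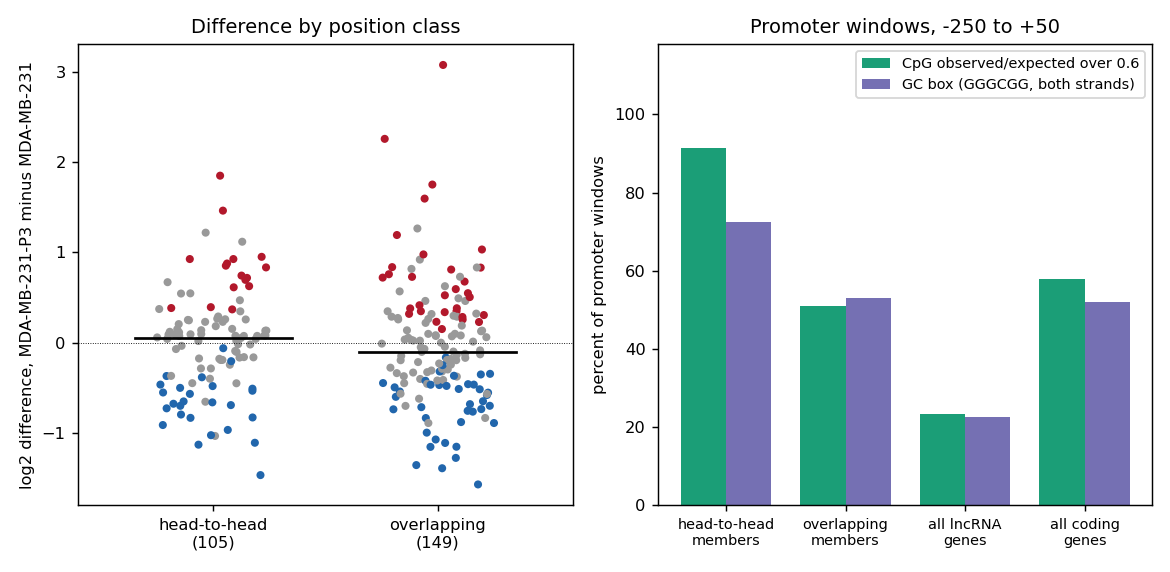
Left, log2 difference, MDA-MB-231-P3 minus MDA-MB-231 (y axis), of the 105 head-to-head and 149 overlapping members (1 point each, horizontal line at the median, colours as in the plot of mean levels). Right, percent of promoter windows (y axis) with a CpG ratio over 0.6 (green) and with a GC box (purple). The medians, 0.05 and -0.10, lie close to 0 beside the spread of the points, and head-to-head windows have the highest bars, 91.4% and 72.4%.

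Reads of an antisense transcript and of its partner can be mixed where their exons overlap and strand is not used. The libraries marked the strand, and whether the counting used it is not given in the sources used here. More than 50% of the exon bases lay in opposite-strand exons for 16 members, and 63 had no such base. The 16 had a median log2 difference of 0.03 (-0.08 under either scaling), with 4 above (25%) and 5 below (31.2%), and the 63 had a median of -0.04, with 13 above (20.6%) and 17 below (27.0%). The shares over all genes tested were 28.8% and 21.4%. TTN-AS1, antisense to the titin gene, was the member of the 16 with an unadjusted p under 0.05. It had 4.14 and 4.57 FPKM in the parent and 11.8 and 7.47 FPKM in the subline (log2 difference 1.03, SE 0.33, limma adjusted p = 0.294), and 54.9% of its exon bases lie in opposite-strand exons.

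Grouped by what the partner genes do, no list had a member that passed the test. The counts below stand beside 9.5% higher and 5.68% lower at an unadjusted p under 0.05, and 28.8% above and 21.4% below in the order of the libraries, over all genes tested. Among 10 members next to cell cycle and DNA repair genes (the name pattern also took CDC37L1-AS1) 5 had a positive and 5 a negative difference, with a median of -0.05. WEE2-AS1 was 1 of the 2 with an unadjusted p under 0.05, both higher, while RNASEH1-AS1 had 16.8 and 22.1 FPKM against 15.4 and 13.98 FPKM and the lines overlapped in MCM3AP-AS1. Among 35 partners in chromatin and transcription, 13 differences were positive and 22 negative (median -0.18), and the unadjusted p was under 0.05 for 1 higher and 2 lower. NR2F1-AS1, next to an orphan nuclear receptor gene, had 18.1 and 19.6 FPKM in the parent and 21.7 and 26.3 FPKM in the subline (log2 difference 0.34, SE 0.26, limma adjusted p = 0.550).

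Of 16 members next to genes of RNA processing and translation, 7 differences were positive and 9 negative (median -0.10), with an unadjusted p under 0.05 for EIF1B-AS1 and NUP50-AS1 and for 1 more in each direction. THUMPD3-AS1 had 27.3 and 27.6 FPKM against 24.8 and 21.4 FPKM, with both subline libraries the lower. For 25 partners in kinase and GTPase signalling (the pattern also took RHOXF1-AS1, whose partner is a homeobox gene) the counts were 14 and 11 (median 0.04), with 4 higher and 2 lower at an unadjusted p under 0.05. RAB30-AS1, next to a small GTPase gene, had 22.0 and 23.6 FPKM in the parent and 13.9 and 14.2 FPKM in the subline (-0.68, SE 0.24, limma adjusted p = 0.319). MAPKAPK5-AS1, next to a stress-activated kinase gene, had 29.5 and 29.6 FPKM against 19.8 and 22.8 FPKM (-0.47, SE 0.25, limma adjusted p = 0.445). Both were lower in the 2 subline libraries, with less spread within a line than between lines.

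The 11 members next to adhesion, matrix and cytoskeleton genes had 5 positive and 6 negative differences (median -0.00) and 2 with an unadjusted p under 0.05, both higher, TTN-AS1 being 1 of them. LOXL1-AS1, antisense to a lysyl oxidase gene of elastic fibres, had 19.4 and 17.1 FPKM in the parent and 8.86 and 20.4 FPKM in the subline, and SVIL-AS1 had 11.99 and 10.8 FPKM against 12.5 and 11.7 FPKM. In LOXL1-AS1 a single subline library stood apart from the other 3, and the log2 difference of -0.42 was 0.16 without it. Among 18 partners in mitochondria, metabolism and transport, 11 were positive and 7 negative (median 0.09), with an unadjusted p under 0.05 for 1 in each direction. NNT-AS1, next to the gene of the mitochondrial transhydrogenase, had 8.01 and 4.51 FPKM against 10.8 and 13.6 FPKM (0.95, SE 0.37, limma adjusted p = 0.337), and COX10-AS1 had 6.60 and 7.31 FPKM against 9.96 and 8.64 FPKM. Here 6 members had both subline libraries above and 4 had both below. Under centring the median of this list was -0.02, and that of the kinase and GTPase list was -0.07.

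For 22 partners in ubiquitin transfer, folding and trafficking the counts were 11 and 11 (median -0.07), with 0 at an unadjusted p under 0.05, and both subline libraries were above for 3 (13.6%) and below for 7 (31.8%), beside 28.8% and 21.4% of all genes tested. Of 24 antisense lncRNAs known from work on tumour growth or invasion, 10 differences were positive and 14 negative (median -0.15), and TTN-AS1 alone had an unadjusted p under 0.05. These medians stand beside 0.09 for all genes tested, and 132 members belonged to no partner list. Members of mean 10 FPKM or more had a median of -0.22, with both subline libraries above for 6 (17.1%) and below for 13 (37.1%) of 35, and the other 233 had a median of -0.01, with 43 above (18.5%) and 60 below (25.8%). Over all genes tested these shares were 28.8% and 21.4%. An unadjusted p under 0.05 was reached by 1 higher (2.86%) and 5 lower (14.3%) of the 35, beside 9.5% and 5.68% of all genes tested. The 4 members of at least 10 FPKM with the smallest differences were TTC28-AS1, TPT1-AS1, LAMTOR5-AS1 and ZBED5-AS1. LAMTOR5-AS1 had 12.3 and 11.9 FPKM in the parent and 13.5 and 12.1 FPKM in the subline.

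The libraries of a line often differed as much as the lines. The larger of the 2 within-line ratios had a median of 1.59 over the members and exceeded 2 for 78 of them. Beside PSMA3-AS1, the members of at least 5 FPKM with the largest ratios were IGF2BP2-AS1, with 10.4 and 2.88 FPKM against 7.56 and 3.25 FPKM, and OR2A1-AS1, with 6.46 and 4.99 FPKM against 6.95 and 2.39 FPKM. In both, the lines overlapped.

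Below the sums, the values were spread over many isoforms. The members had 4700 isoform rows, with a median of 12.5 per gene, from 1 to 286 (PCBP1-AS1), and a median of 4 with a mean of at least 0.1 FPKM. The most abundant isoform held a median of 44.4% of its gene's level, over 50% in 103 members and over 90% in 19. Of 8432 isoform rows tested in the table, 693 belonged to members, and 0 of these passed, as did 0% of all isoform rows (smallest limma adjusted p of a member isoform 0.112). An unadjusted p under 0.05 was reached by 40 of the 693 that were higher and 41 that were lower, against 7.87% and 5.46% of all rows tested.

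The isoform with the highest value was the same in all 4 libraries for 77 members. It was shared within each line and differed between the lines for 13, and it varied within a line for the other 178. For the 4 members with 1 isoform no switch was possible, and no share over all genes is given beside these counts. The 3 most abundant of the 13 were RAB30-AS1, NOP14-AS1 and TPT1-AS1. In RAB30-AS1 isoform 9 had 10.2 and 8.10 FPKM in the parent and 5.26 and 1.81 FPKM in the subline, and isoform 29 had 2.42 and 0.370 FPKM against 5.49 and 4.95 FPKM. In NOP14-AS1 isoform 4 had 7.91 and 6.79 FPKM against 2.82 and 3.29 FPKM, and isoform 15 had 0.960 and 4.94 FPKM against 3.50 and 4.65 FPKM. TPT1-AS1, head-to-head with the gene of a translationally controlled tumour protein, had nearly the same sum in both lines (log2 difference 0.08, SE 0.29). Its isoform 64 was at 3.07 and 3.62 FPKM in the parent and listed at or near 0 in the subline (limma adjusted p = 0.131).

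The parental sum of LIPE-AS1 was steadier than its main isoforms. In WEE2-AS1 and FGD5-AS1, in turn, a single isoform was steadier over the 4 libraries than the sum. LIPE-AS1 summed to 25.5 and 28.7 FPKM in the parental libraries, of which isoform 2 took 24.4 and 0.0550 FPKM and isoform 18 took near 0 and 27.6 FPKM. In the subline isoform 2 had 7.14 and 9.11 FPKM. The 2 parental libraries thus placed the level of LIPE-AS1 on different isoforms. In PSMA3-AS1 isoform 8 was at 76.6 FPKM, near 0, near 0 and 106 FPKM in the 4 libraries, the same order as the sum, and isoform 9 was at 58.3, 35.7, 18.7 and 23.4 FPKM. For WEE2-AS1, isoform 35 stayed between 0.829 and 1.07 FPKM in all 4 libraries. Its isoform 4 was near 0 and 0.0106 FPKM in the parent and 3.07 and 6.19 FPKM in the subline, and isoform 14 was near 0 in the parent and 2.50 and 1.93 FPKM in the subline. In the mean over the 4 libraries, PIK3CD-AS2 had 89.2% of its level in isoform 3, with 5.71 and 6.48 FPKM in the subline. In the parent this isoform was near 0 and at 0.748 FPKM. The similar parental sums of PIK3CD-AS2 were thus also made of different isoforms. FGD5-AS1 kept isoform 17 at 67.8, 66.5, 65.5 and 67.6 FPKM, the steadiest of the isoforms named here.

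**Figure D5:**
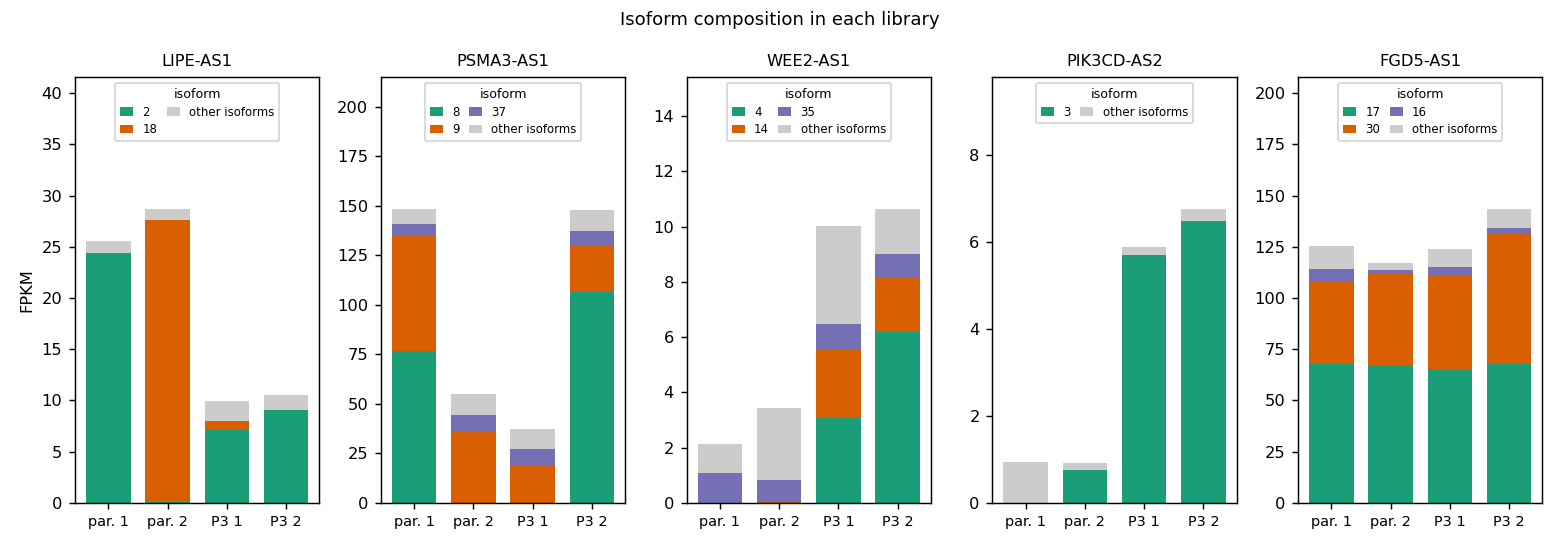
FPKM of the up to 3 most abundant tested isoforms (colours, by isoform number) and of all others (grey), stacked, in the parental libraries (par. 1 and par. 2) and the subline libraries (P3 1 and P3 2) of 5 members, each with its own y axis from 0. LIPE-AS1 shows similar parental sums of 25.5 and 28.7 FPKM made of different isoforms, and FGD5-AS1 shows the same isoforms in all 4 libraries.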

How the data were processed

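Strand-specific paired-end libraries were made by the authors from the mRNA fraction, and reads were aligned to hg19 with HISAT2, per the labels' protocols. StringTie is also named in the submitters' processing notes. The authors deposited FPKM for each lncRNA isoform. Their versions, the lncRNA annotation and the strand setting were not given in the sources used here. The series table, whose values were equal to those of the single-sample files, was summed per gene and put on the log2(FPKM + 0.5) scale. The test was limma 3.58.1 under R 4.3.3 (eBayes with trend, two-sided, no block, mean FPKM at least 0.5, Benjamini-Hochberg over 6444 genes or 8432 isoforms, threshold 0.05), after tests on simulated data. Depth was unknown, so no counting interval is given. Positions came from GENCODE release 44 on hg19. The members and the 11 gene lists were chosen with earlier results of these data known. Named members were the 10 of highest mean, the 6 of smallest p per direction, those nearest the level minimum, with the largest within-line ratio or the smallest difference, up to 3 per list by mean, and 3 isoform switches. Other members are named as examples, chosen after their values were seen. Alternatives were other pseudocounts, filters and scalings, no trend, a replicate block and single libraries left out.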

Additional observations from a re-analysis of the deposited data

How the results depend on the processing

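No member passed the test in any setting that kept all 4 libraries, except that with the 8 left-out genes 1 of 276 (PCED1B-AS1) was called. Isoforms were refitted only with a minimum mean FPKM of 1, with the replicate block and without single libraries. No member isoform passed in those fits that kept all 4 libraries. The 4 genes called in the whole table became 0 with a pseudocount of 1, with the replicate block, without the trend, without any filter on level and without any single library (0 to 0), and 2 with quantile normalization. In the labels, same-numbered libraries shared only a number, and the correlation of their deviations was 0.0777. Whether they shared a batch was not tested. Under the block 17 members were higher and 13 lower at an unadjusted p under 0.05. The 17 lower members became 26 without the filter and 28 with median centring. Leaving out single libraries gave 6 to 13 higher and 3 to 12 lower. The members' median of -0.03 became -0.11 with quantile normalization, -0.14 with centring and -0.16 for the 81 members of at least 5 FPKM. Of these 81, 12 lay above and 29 below, beside 28.8% and 21.4% of all genes tested. No share over all genes of that level is given. Without single libraries the median of all members ranged from -0.12 to 0.010. The cause of these shifts was not tested.

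Of 44 named members, 28 kept their sign in all 12 alternatives. The filters, the fit without the trend and the replicate block leave a gene's log2 difference unchanged. Only the pseudocounts, the scalings and the left-out libraries could therefore change a sign. SLC25A21-AS1 changed it with quantile normalization (-0.027) and centring (-0.061), and centring also turned LAMTOR5-AS1 (-0.033), SVIL-AS1 (-0.030), TPT1-AS1 (-0.032), TTC28-AS1 (-0.042) and ZBED5-AS1 (-0.038). Without single libraries the log2 difference ranged from -0.56 to 0.22 for CACTIN-AS1, -0.99 to 0.70 for IGF2BP2-AS1, -0.61 to 0.034 for PITPNA-AS1, -1.26 to 0.71 for PSMA3-AS1, -0.27 to 0.37 for SLC25A21-AS1, -0.30 to 0.66 for YTHDF3-AS1, -0.22 to 0.37 for ZBED5-AS1, -0.020 to 0.94 for CCDC18-AS1, -0.56 to 0.065 for GABPB1-AS1, -0.039 to 0.67 for MCM3AP-AS1, -0.12 to 0.28 for TPT1-AS1, -0.25 to 0.39 for TTC28-AS1, -0.00054 to 0.16 for LAMTOR5-AS1, -0.998 to 0.16 for LOXL1-AS1 and -1.10 to 0.27 for OR2A1-AS1. With 1 library left in a line, that library is assumed to vary like those of the other line. Depth was unknown, so differences within sampling noise at low FPKM could not be set apart.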
